A study of Saccharomyces cerevisiae with 164 samples.

Results

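These data compare yeast cells that carry the histone H3 substitution K36Q on both of their H3 plasmids with cells that carry it on 1 of them. The members are 9 libraries of 164 in the series, chosen by their labels as the 3'-end RNA libraries of sequencing batch 10 that come from K36Q strains. They are 3 K36Q double libraries, 3 K36Q H3X libraries and 3 K36Q H3Y libraries, all numbered as replicates 3 to 5. The question is what a second copy of the substitution adds, so the double strain was set against the mean of both single-copy strains. All strains are Mata haploids of Saccharomyces cerevisiae with delta(hht-hhf1) and delta(hht2-hhf2), so both chromosomal H3 and H4 gene pairs are deleted. They are also leu2-3,112, ura3-62, trp1 and his3+, and were collected at mid-log phase in YEPD, a rich glucose medium. H3 comes from a TRP1 CEN plasmid with an H3 labelled 127A (L127A and L131V), called H3X, together with a LEU2 CEN plasmid with an H3 labelled 1B (L110I, A111W and L131I), called H3Y. K36Q double has K36Q in both, K36Q H3X only in the 127A protein, and K36Q H3Y only in the 1B protein. The 6 pseudo-wild-type libraries of the same batch carry both engineered H3 proteins without K36Q, so every group shares the deletions and the interface substitutions. Nothing in the labels says whether the replicates are separate cultures, so p-values measure the spread between libraries.

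Lysine 36 of H3 is methylated by Set2, which travels with elongating RNA polymerase II. In yeast the mark is read by Eaf3 in the Rpd3S histone deacetylase complex, which also holds Rco1, and by Ioc4 of the Isw1b remodeler, and it is removed by Jhd1, Rph1 and Gis1. Loss of Set2 or Rpd3S leaves coding regions hyperacetylated and lets transcription start inside genes, with FLO8 and STE11 as the standard examples. Glutamine at this position cannot carry lysine methylation and is often used to stand for an acetylated lysine.

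The codon that K36Q changes is shown here because the strains differ by it. It is given as the unmutated sequence of HHT2 (YNL031C) in the R64 reference from RefSeq, on the minus strand at chrXIV:575916-575966, inside the coding sequence, with codon 36 in capitals and 8 codons on each side. Residues are counted after the initiator methionine.
HHT2: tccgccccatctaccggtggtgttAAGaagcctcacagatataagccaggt

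The 9 libraries hold 2415890 to 4206098 counts each. The lowest total belongs to K36Q H3Y replicate 3, and the K36Q double libraries have 3566178 to 4023476. Of the labelled deletions, that of HHT1 showed in the counts, with 0 in all 9 libraries. HHT2, the gene carried on the plasmids, had 3289 to 4049 CPM (counts scaled to a common library total), so the counts cannot show its chromosomal deletion. HHF1 also had 0 counts in all 9, although the labels name HHF1 as the H4 gene of a LEU2 plasmid, and HHF2 had 10050 to 14330 CPM. The counts cannot show K36Q itself, because a 3'-end tag lies outside codon 36. Of the a-cell markers, MFA2 (a-factor), STE2 (the alpha-factor receptor) and BAR1 (the protease that degrades alpha-factor) were present in every library. STE6 had 133 to 199 CPM, while MFA1 and AGA2 were lower, at 24.7 to 38.8 and 25.1 to 47.0 CPM. ASG7 has no value at the 3' end. MF(ALPHA)1, which encodes alpha-factor, reached at most 1.86 CPM, but 2 other alpha-cell markers were not at 0, with STE3 at 41.2 to 61.6 CPM and SAG1, a minus-strand gene of chromosome X, at 44.3 to 63.4 CPM. STE3 and SAG1 thus lay above MFA1 in level and overlapped AGA2.

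Among these libraries K36Q double replicate 3 stood apart from the other double libraries. Over 4886 genes the SD of its log2 difference from the single-copy mean was 0.181, against 0.290 and 0.301 for double replicates 4 and 5. The single-copy libraries had 0.168 to 0.258 by the same measure, each against the remaining 5, so replicate 3 lay within their range and replicates 4 and 5 above it. Double replicate 3 also differed more from double replicates 4 and 5 (SD 0.319 and 0.304) than these did from each other (0.230). In the pseudo-wild-type group, replicate 8 lay on the side of double replicates 4 and 5 for most genes named below. All main results are therefore given with K36Q double replicate 3 in the fit and, where it matters, also without it. Double replicate 3 was singled out from these same values, for lying near the single-copy libraries. Leaving out such a library tends to widen the difference. Calls and adjusted p-values without double replicate 3 are therefore descriptions and not a separate test.

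No gene passed the test between K36Q double and the mean of the single-copy strains. The quasi-likelihood test of edgeR, adjusted by Benjamini-Hochberg, called 0 of 4984 genes (0%), and the smallest adjusted p was 0.234. DESeq2 called 2 genes, 1 in each direction. At an unadjusted p under 0.05 there were 638 genes (12.8%), of which 337 were higher (6.76%) and 301 lower (6.04%) in K36Q double. All 3 double libraries lay above all 6 single-copy libraries for 141 genes (2.83%) and below them for 158 genes (3.17%). The outcome turned on 1 library. Without K36Q double replicate 3 the same test called 81 of 4987 genes, 60 higher (1.2%) and 21 lower (0.421%), whereas it called 0 without double replicate 4 or without double replicate 5. The unadjusted p under 0.05 was met by 923 genes without replicate 3, by 235 without replicate 4 and by 214 without replicate 5.

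The 6 genes with the smallest p among those higher in K36Q double were SNX41, ATO2, AIM39, ZIP1, DDR2 and SSA4, and none of them passed the test with all libraries. SNX41 (YDR425W) encodes a sorting nexin that works in retrieval from endosomes and in selective autophagy. Its level was 17.5, 20.3 and 18.8 CPM in K36Q double, against 10.8, 8.61 and 10.3 CPM in K36Q H3X and 6.51, 14 and 13.6 CPM in K36Q H3Y. The groups did not overlap, and all 3 double libraries were high. The mean was 18.9 ± 1.42 CPM in K36Q double (SD, n = 3) and 10.6 ± 2.88 CPM in the single-copy libraries (SD, n = 6). The log2 fold change was 0.81 (SE 0.18, adjusted p = 0.234 by edgeR). SSA4 (YER103W), a stress-inducible cytosolic Hsp70 chaperone, was the other gene of the 6 whose groups did not overlap. It had 89.2, 139 and 151 CPM in K36Q double, against 62.9, 79.5 and 79.2 CPM in K36Q H3X and 60.6, 84.0 and 69.5 CPM in K36Q H3Y. Double replicate 3 was only slightly above the highest single-copy library, and the log2 fold change was 0.80 (SE 0.20, adjusted p = 0.286 by edgeR).

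In the remaining 4 of these genes double replicates 4 and 5 lay above all single-copy libraries, and double replicate 3 overlapped them. ATO2 (YNR002C) encodes a plasma membrane protein of the acetate and ammonium transporter family. It had 29.9, 80.6 and 52.3 CPM in K36Q double, against 34.5, 31.4 and 27.5 CPM in K36Q H3X and 35.8, 31.6 and 29.3 CPM in K36Q H3Y. Its log2 fold change was 0.78 (SE 0.19, adjusted p = 0.286 by edgeR) with all libraries, and 1.07 (adjusted p = 0.00233) without double replicate 3. DDR2 (YOL052C-A), a small protein induced by many stresses, had 146, 312 and 324 CPM in K36Q double, against 165, 220.2 and 146 CPM in K36Q H3X and 97.6, 114 and 119 CPM in K36Q H3Y. Here K36Q H3Y was lowest throughout and K36Q H3X lay between it and double replicates 4 and 5. ZIP1 (YDR285W), a meiotic synaptonemal complex protein, followed the same order with 21.0, 28.9 and 41.7 CPM in K36Q double, against 12.9, 23.0 and 24.3 CPM in K36Q H3X and 12.2, 10.9 and 12.1 CPM in K36Q H3Y. AIM39 (YOL053W), a gene of uncertain function, had 90.3, 136 and 165 CPM in K36Q double, against 92.9, 112 and 88.0 CPM in K36Q H3X and 44.3, 64.8 and 74.9 CPM in K36Q H3Y. AIM39 and DDR2 converge on chromosome XV and their counted features overlap on opposite strands, and the ZIP1 feature overlaps that of MGP12. Counting used the strand.

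**Figure D1:**
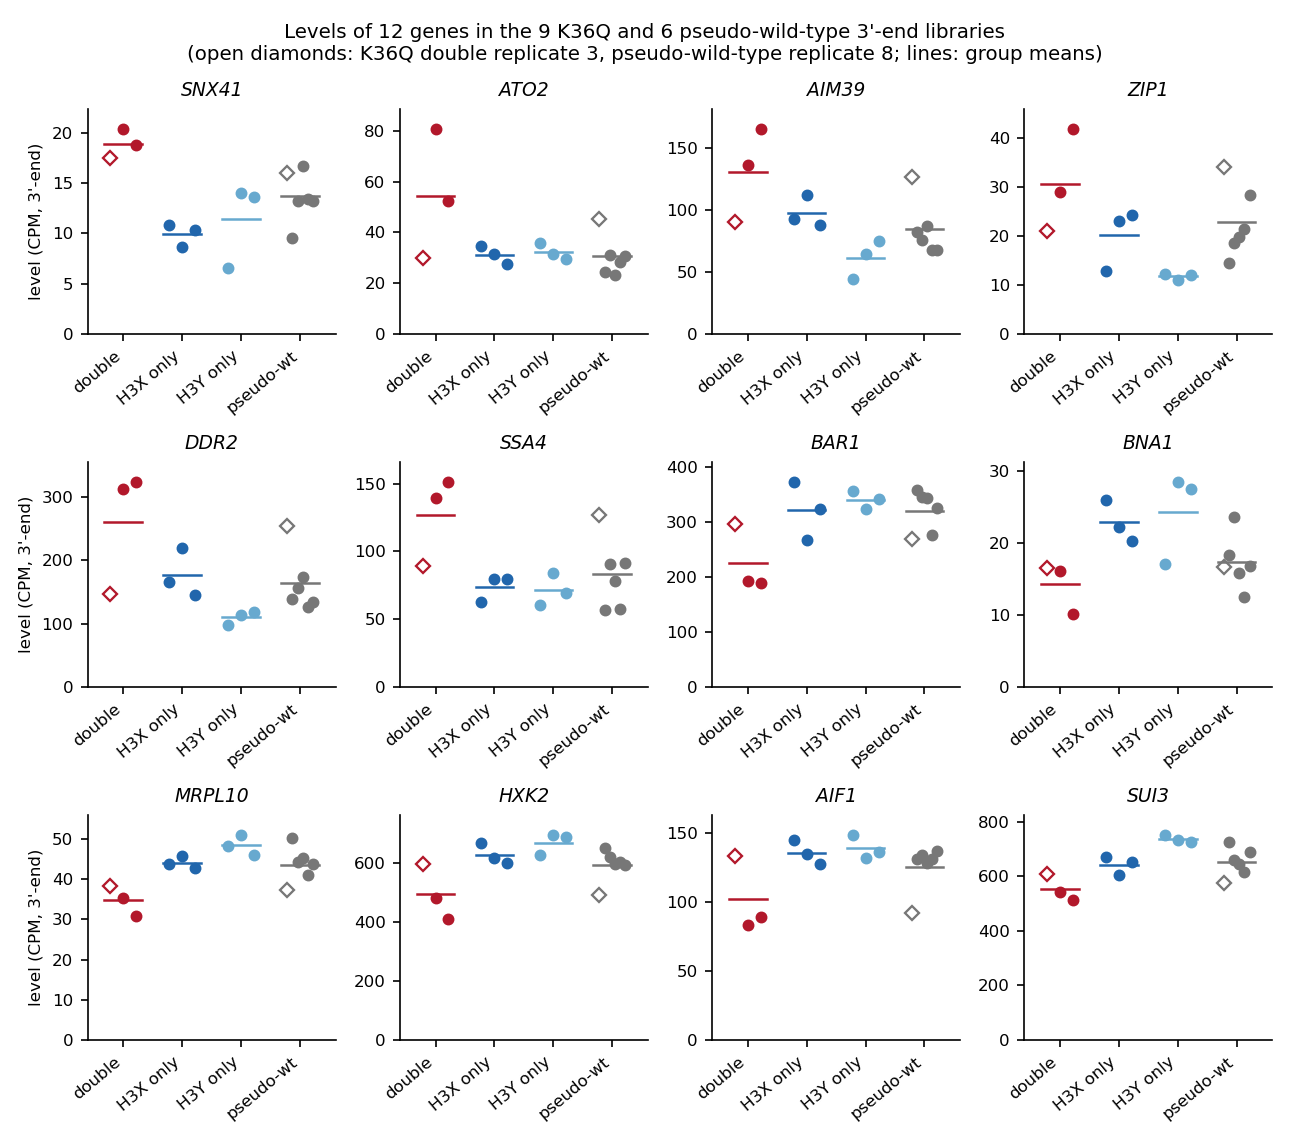
Level (CPM, y axis from 0) of the 12 genes with the smallest p in each direction, in K36Q double, K36Q H3X, K36Q H3Y and pseudo-wild-type libraries; each point is 1 library, lines are group means, and open diamonds are K36Q double replicate 3 and pseudo-wild-type replicate 8. For ATO2 the double libraries sit at 29.9, 80.6 and 52.3 CPM and pseudo-wild-type replicate 8 at 45.2 CPM, while for MRPL10 all 3 double libraries lie below all 6 single-copy libraries.

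The 6 genes with the smallest p among those lower in K36Q double were BAR1, BNA1, MRPL10, HXK2, AIF1 and SUI3, and none of them passed with all libraries. BAR1 (YIL015W) is expressed in a cells only. It had 295, 192 and 189 CPM in K36Q double, against 372, 267 and 322 CPM in K36Q H3X and 356, 322 and 342 CPM in K36Q H3Y. Double replicates 4 and 5 were far below every single-copy library and replicate 3 was among them. The mean was 225 ± 60.5 CPM in K36Q double (SD, n = 3) and 330.2 ± 36.3 CPM in the single-copy libraries (SD, n = 6). The log2 fold change was -0.55 (SE 0.12, adjusted p = 0.234 by edgeR), and -0.79 (adjusted p = 0.00196) without double replicate 3.

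For BNA1, MRPL10 and HXK2 all 3 double libraries lay below all 6 single-copy libraries. HXK2 (YGL253W), the main glucose-phosphorylating hexokinase and a mediator of glucose repression, had 596, 482 and 409 CPM in K36Q double. Its single-copy values were 669.8, 618 and 599 CPM in K36Q H3X and 626, 695 and 687 CPM in K36Q H3Y. The log2 fold change was -0.39 (SE 0.11, adjusted p = 0.287 by edgeR). MRPL10 (YNL284C), a mitochondrial ribosomal protein, had the narrowest spread, with 38.3, 35.4 and 30.9 CPM in K36Q double, against 44.0, 45.7 and 42.8 CPM in K36Q H3X and 48.4, 51.1 and 46.1 CPM in K36Q H3Y. BNA1 (YJR025C), an enzyme of NAD synthesis from tryptophan, had 16.6, 16.1 and 10.2 CPM in K36Q double, against 26.1, 22.3 and 20.4 CPM in K36Q H3X and 17.1, 28.5 and 27.5 CPM in K36Q H3Y. Its log2 fold change was -0.74 (SE 0.20, adjusted p = 0.286 by edgeR). BNA1 is a minus-strand gene on chromosome X, where the counted features are displaced from the genes: 21.0% of them hold the reference gene, against 91.9% on the other chromosomes. The counts of minus-strand genes there are low in all libraries alike, with a median log2 ratio of 3'-end to full-length level of -1.35, against -0.29 for minus-strand genes on the other chromosomes. AIF1 (YNR074C), a mitochondrial cell death effector, had 134, 83.6 and 88.8 CPM in K36Q double, against 128 to 148 CPM in the single-copy libraries. SUI3 (YPL237W), the beta subunit of translation initiation factor eIF2, had 606, 541 and 511 CPM in K36Q double, against 605 to 751 CPM in the single-copy libraries.

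Stress-induced genes stood higher in K36Q double as a group. Of the 61 genes in a list of general stress-induced genes 53 were tested, and 21 of them had an unadjusted p under 0.05 with a higher level in K36Q double, which is 39.6%, against 6.76% of all genes tested. None had one with a lower level, and none passed the adjusted threshold. The median log2 fold change of the list was 0.33, against 0.02 over all genes tested, and the medians of all 41 lists examined ranged from -0.42 to 0.33. Library by library, the median log2 difference of the list from the single-copy mean was 0.11, 0.46 and 0.27 in K36Q double replicates 3, 4 and 5. It was -0.02, 0.26 and -0.04 in K36Q H3X and -0.06, -0.12 and -0.01 in K36Q H3Y, and -0.24 to 0.21 in the pseudo-wild-type libraries. K36Q H3X replicate 4 lay near double replicate 5, and double replicate 3 lay below both. Without double replicate 3 the list's median was 0.41 and 5 members passed the adjusted threshold, all higher.

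HSP26 (YBR072W), a small heat shock protein that binds unfolded proteins, was one of these 5. It had 129, 317 and 297 CPM in K36Q double, against 122, 150.4 and 146 CPM in K36Q H3X and 157, 126 and 134 CPM in K36Q H3Y. Double replicates 4 and 5 were above every single-copy library and replicate 3 was within them. Its log2 fold change was 0.83 (SE 0.21, adjusted p = 0.286 by edgeR), and 1.14 (adjusted p = 0.00439) without replicate 3. The members named next were chosen after their values were seen. HSP12 (YFL014W), a membrane-associated stress protein, had 867, 1839 and 2595 CPM in K36Q double, against 1167, 1254 and 1298 CPM in K36Q H3X and 937, 808 and 558 CPM in K36Q H3Y. FMP16 (YDR070C), a mitochondrial protein, had 21.9, 36.2 and 37.1 CPM in K36Q double, against 16.2 to 25.5 CPM in the single-copy libraries. CTT1 (YGR088W), the cytosolic catalase, had 89.0, 141 and 141 CPM in K36Q double, against 86.8 to 116 CPM in the single-copy libraries. In all 3 genes double replicate 3 overlapped the single-copy libraries.

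Many stress-induced genes carry the stress response element, AGGGG or its reverse complement CCCCT, the site of the activators Msn2 and Msn4. In a window of 250 bases, 350 to 101 bases before the start codon, at least 1 match on either strand was present for 20.3% of the 4984 genes tested. It was present for 35.9% of the 337 genes higher at an unadjusted p under 0.05, for 18.3% of the 301 lower genes and for 75.5% of the stress-induced list. A match is a description of these letters and not evidence of binding. Windows of 3 stress genes whose levels are described above are printed to show where the element lies, from the R64 reference (RefSeq), 5′ to 3′ on the strand of the gene with the matches in capitals. None of the windows overlaps an annotated gene or a counted feature. The DDR2 window is chrXV:231856-232105 on the minus strand with 3 matches, the SSA4 window chrV:364239-364488 on the plus strand with 1 match, and the HSP26 window chrII:381680-381929 on the plus strand with 1 match.
DDR2: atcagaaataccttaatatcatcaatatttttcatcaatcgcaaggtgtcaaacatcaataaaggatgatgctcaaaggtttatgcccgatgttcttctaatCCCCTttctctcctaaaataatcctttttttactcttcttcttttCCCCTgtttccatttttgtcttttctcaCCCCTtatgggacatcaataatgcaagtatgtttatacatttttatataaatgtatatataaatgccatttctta
SSA4: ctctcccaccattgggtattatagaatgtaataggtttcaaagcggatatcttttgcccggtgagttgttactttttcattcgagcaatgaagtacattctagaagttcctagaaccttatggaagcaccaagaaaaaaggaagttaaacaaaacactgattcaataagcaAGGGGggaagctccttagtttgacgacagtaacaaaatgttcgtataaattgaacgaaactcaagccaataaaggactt
HSP26: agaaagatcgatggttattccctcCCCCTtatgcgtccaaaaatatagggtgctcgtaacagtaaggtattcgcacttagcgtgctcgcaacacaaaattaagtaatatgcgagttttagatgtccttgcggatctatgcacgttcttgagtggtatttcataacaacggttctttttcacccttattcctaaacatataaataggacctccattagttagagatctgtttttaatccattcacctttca

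Genes for growth on poor carbon sources also stood higher in double replicates 4 and 5. Of 33 tested genes that glucose represses, 12 (36.4%) were higher in K36Q double at an unadjusted p under 0.05 and 0 were lower. Over all genes tested these shares were 6.76% and 6.04%. The median log2 fold change of the glucose-repressed genes was 0.25. The list's medians by library were -0.03, 0.45 and 0.25 in K36Q double, against -0.03 to 0.07 in K36Q H3X and -0.07 to 0.03 in K36Q H3Y. Double replicates 4 and 5 were above all single-copy libraries, and replicate 3 was among them. ADH2 (YMR303C), the alcohol dehydrogenase that consumes ethanol, had 78.9, 174 and 142 CPM in K36Q double, against 76.6 to 96.0 CPM in the single-copy libraries. JEN1 (YKL217W), a lactate and pyruvate transporter, had 54.4, 88.1 and 75.4 CPM in K36Q double, against 40.7 to 61.6 CPM in the single-copy libraries. GUT2 (YIL155C), the mitochondrial glycerol phosphate dehydrogenase, had 50.7, 73.3 and 69.8 CPM in K36Q double, against 37.0 to 53.7 CPM in the single-copy libraries. These 3 genes were chosen after their values were seen, and in each of them replicates 4 and 5 lay above every single-copy library. Of 19 tested trehalose and glycogen genes 6 (31.6%) were higher and 1 (5.26%) lower, with a median of 0.27. By library this list had 0.09, 0.38 and 0.26 in K36Q double, against -0.07, 0.26 and -0.02 in K36Q H3X and -0.15 to -0.04 in K36Q H3Y. K36Q H3X replicate 4 was level with double replicate 5. PGM2 (YMR105C), the main phosphoglucomutase, had 97.1, 146 and 122 CPM in K36Q double, against 82.2 to 125 CPM in the single-copy libraries, so only double replicate 4 was above all of them.

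Of 33 tested chaperone and heat shock genes, 6 were higher at an unadjusted p under 0.05, which is 18.2%, against 6.76% of all genes tested. Another 2 were lower, 6.06%, a share near the 6.04% of all genes tested. The median log2 fold change was 0.13. HSP82 (YPL240C), the inducible Hsp90, had 1536, 1791 and 1725 CPM in K36Q double, against 1013 to 1453 CPM in the single-copy libraries, with no overlap. SSB2 (YNL209W), an Hsp70 bound to the ribosome, stood lower, with 1307, 1269 and 1129 CPM in K36Q double, against 1327 to 1549 CPM in the single-copy libraries. Neither gene passed the adjusted test, and both were chosen after their values were seen.

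Genes for cytosolic ribosomal proteins stood lower in K36Q double, again with no member past the adjusted threshold unless double replicate 3 was left out, when 2 of them, RPL34A and RPL36B, passed. Of 130 tested, 75 had an unadjusted p under 0.05 with a lower level in K36Q double, which is 57.7%, against 6.04% of all genes tested, and 0 had one with a higher level. The median log2 fold change was -0.28. By library the list's median was -0.12, -0.31 and -0.41 in K36Q double, against 0.07, -0.16 and -0.07 in K36Q H3X and 0.04 to 0.07 in K36Q H3Y. Pseudo-wild-type libraries had -0.44 to 0.15, and the lowest of them was replicate 8. Double replicate 3 again overlapped the single-copy libraries. RPL34A (YER056C-A), a protein of the large ribosomal subunit, had 1064, 900.1 and 838 CPM in K36Q double, against 1067 to 1310 CPM in the single-copy libraries. RPS9B (YBR189W), of the small subunit, had 1537, 1491 and 1307 CPM in K36Q double, against 1624 to 1999 CPM in the single-copy libraries. RPL32 (YBL092W), of the large subunit, had 2441, 2128 and 2023 CPM in K36Q double, against 2561 to 3048 CPM in the single-copy libraries. All 3 were chosen after their values were seen, and their groups did not overlap. Many ribosomal protein genes have near-identical paralogs, so the split of reads between copies is uncertain. Of all counts, ribosomal protein genes took 19.8% to 22.4% in K36Q double, against 22.3% to 24.3% in K36Q H3X and 24.4% to 24.9% in K36Q H3Y, and 19.7% to 25.1% in pseudo-wild-type.

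**Figure D2:**
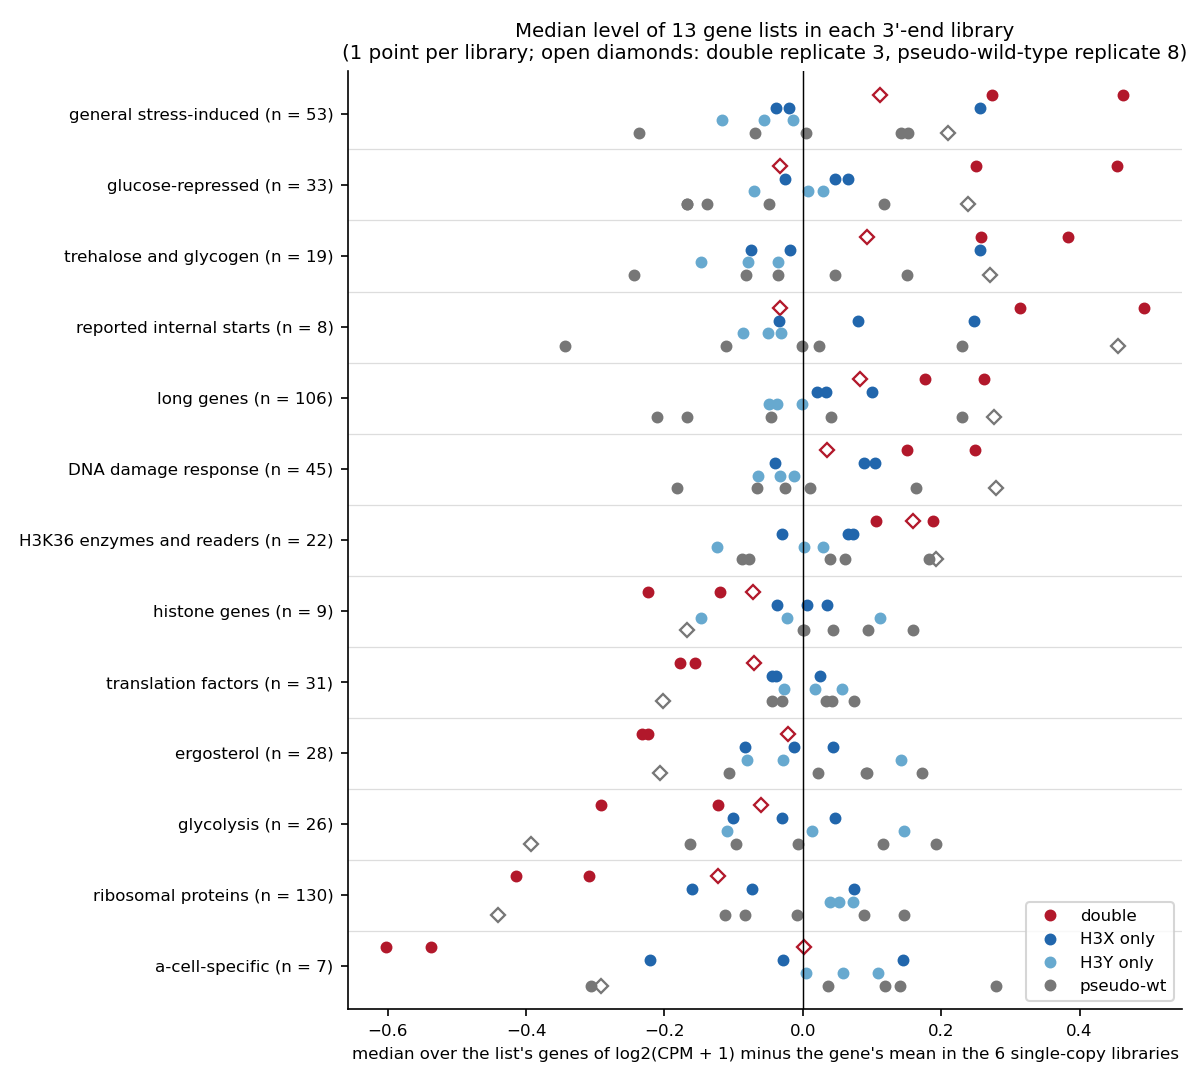
Median level of 13 gene lists in each 3'-end library (x axis, log2(CPM + 1) minus the gene's mean over the 6 single-copy libraries, median over the list; 1 point per library, rows are lists with the number of genes tested, colours are groups). General stress-induced genes stand at 0.11, 0.46 and 0.27 in K36Q double and ribosomal protein genes at -0.12, -0.31 and -0.41, with double replicate 3 (red diamond) nearest to 0 of the double libraries in both and pseudo-wild-type replicate 8 (grey diamond) at 0.21 and -0.44.

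Gene length moved with the comparison. The genes higher at an unadjusted p under 0.05 had a median coding length of 1884 bases, those lower 693 bases, and all genes tested 1272 bases. Without the ribosomal protein genes the lower genes had a median of 867 bases. The least-squares slope of log2(CPM + 1) on log2 coding length was -0.156, -0.107 and -0.0673 in K36Q double, against -0.204, -0.147 and -0.170 in K36Q H3X and -0.195, -0.194 and -0.225 in K36Q H3Y. Double replicates 4 and 5 were above all single-copy libraries, and replicate 3 was below K36Q H3X replicate 4. The mean slope was -0.110 ± 0.0446 in K36Q double (SD, n = 3) and -0.189 ± 0.0273 in the single-copy libraries (SD, n = 6). The difference of 0.0788 had p = 0.0476 by an exact two-sided permutation test, for which 0.0238 is the smallest p that 3 against 6 libraries allow. With each library left out in turn the difference was 0.0574 to 0.102 and p was 0.0357 to 0.143. Fewer libraries raise the smallest p that the test allows, so a larger p there need not mean a smaller difference. Without K36Q double replicate 3 the difference was 0.102, with p = 0.0714 by the same permutation test. The 6 pseudo-wild-type libraries spread from -0.260 to -0.0707, wider than the single-copy libraries. With the slope of each library as a covariate, edgeR called 0 genes and 483 had an unadjusted p under 0.05. In that fit the median log2 fold change was -0.13 for the ribosomal protein list and -0.03 for the glycolysis and fermentation list, against -0.28 and -0.15 without the covariate. The slope differed between the strains, so this fit does not fully separate length from strain.

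**Figure D3:**
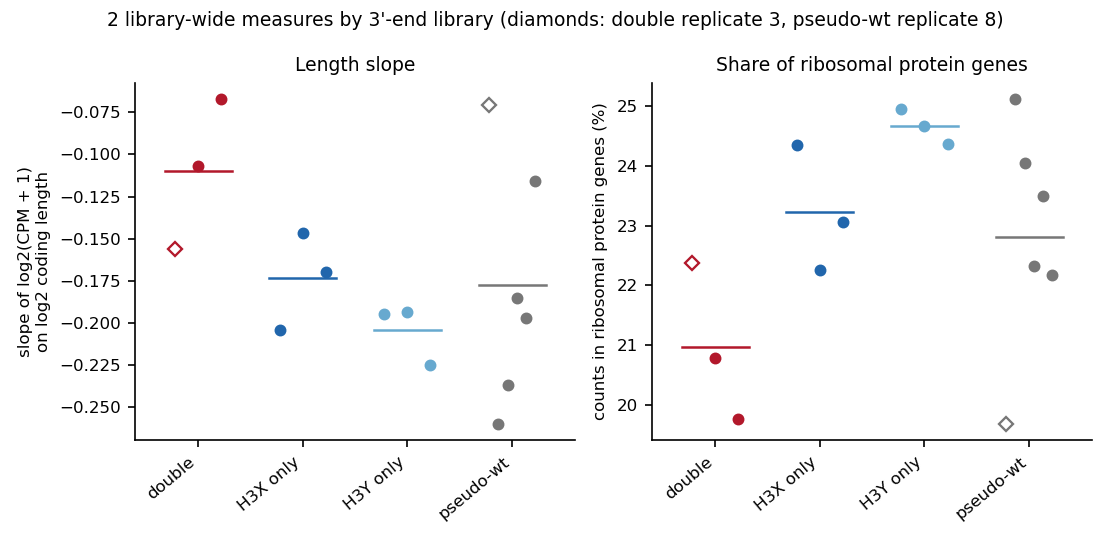
Left, slope of log2(CPM + 1) on log2 coding length in each 3'-end library; right, percentage of counts in cytosolic ribosomal protein genes (the y axis does not start at 0). Each point is 1 library, lines are group means, and diamonds are K36Q double replicate 3 and pseudo-wild-type replicate 8; pseudo-wild-type replicate 8, at -0.0707 and 19.7%, lies beside the double libraries in both panels.

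Among lists, that of 106 tested long genes had 12 members (11.3%) higher and 0 lower at an unadjusted p under 0.05. Over all genes tested these shares were 6.76% and 6.04%. The median log2 fold change of the long genes was 0.20. All 3 double libraries lay above all 6 single-copy libraries for 14 of the 106, against 2.83% of all genes. TEL1 (YBL088C), the checkpoint kinase related to ATM, had 51.6, 60.8 and 65.9 CPM in K36Q double, against 36.2 to 46.8 CPM in the single-copy libraries. Of 45 tested DNA damage response genes 8 (17.8%) were higher and 1 (2.22%) lower, with a median of 0.14. MSH3 (YCR092C), a mismatch repair protein, had 32.5, 39.7 and 36.7 CPM in K36Q double, against 21.4 to 26.8 CPM in the single-copy libraries. Both genes were chosen after their values were seen, both had no overlap between the groups, and neither passed the adjusted test. With the length slope as a covariate both lists changed sign, with a median of -0.04 for long genes and -0.01 for DNA damage response genes. Of 32 tested meiosis and sporulation genes 7 (21.9%) were higher and 0 lower, with a median of 0.17, and 0.10 with the covariate.

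Genes reported to start transcription internally when Set2 or the elongation factor Spt6 is lost stood higher in double replicates 4 and 5. A 3'-end tag counts full-length and internally started transcripts alike where they share an end. Of 8 such genes, 4 (50%) were higher in K36Q double at an unadjusted p under 0.05 and 0 lower. Over all genes tested these shares were 6.76% and 6.04%. The median log2 fold change of the 8 genes was 0.33. FLO8 (YER109C), the activator of flocculation genes, had 53.2, 115 and 115 CPM in K36Q double, against 51.9, 67.8 and 55.7 CPM in K36Q H3X and 44.3, 55.2 and 59.2 CPM in K36Q H3Y. Double replicates 4 and 5 were far above the single-copy libraries, and replicate 3 was within them. Its log2 fold change was 0.76 (SE 0.24, adjusted p = 0.287 by edgeR), and 1.04 (adjusted p = 0.0275) without replicate 3. PCA1 (YBR295W), a cadmium-transporting ATPase, had 74.2, 168 and 148 CPM in K36Q double, against 84.8 to 109.5 CPM in the single-copy libraries. STE11 (YLR362W), a kinase of the mating pathway, had 35.0, 59.8 and 55.7 CPM in K36Q double, against 33.4 to 45.05 CPM in the single-copy libraries. LCB5 (YLR260W), a sphingoid base kinase, was the only gene of the 8 whose groups did not overlap, with 115, 122 and 111 CPM in K36Q double, against 87.9 to 105 CPM in the single-copy libraries. For the other 4 the unadjusted p was above 0.05, and their log2 fold changes were 0.35 for VPS72, 0.30 for SMC3, 0.20 for AVO1 and 0.09 for SPB4. SMC3 is a minus-strand gene of chromosome X and is counted low in all libraries. The list's median was -0.03, 0.31 and 0.49 in K36Q double replicates 3, 4 and 5. It was -0.03, 0.25 and 0.08 in K36Q H3X and -0.09, -0.03 and -0.05 in K36Q H3Y, so K36Q H3X replicate 4 lay near double replicate 4. Pseudo-wild-type libraries had -0.34 to 0.45, and the highest of them was replicate 8. The coding lengths of the 8 genes were 1821 to 3693 bases, above the median of all genes tested. With the length slope of each library as a covariate the list's median was 0.09.

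The enzymes and readers of the mark itself differed little. Of 22 tested genes for H3K36 methylation, demethylation and reading, 1 (4.55%) was higher at an unadjusted p under 0.05 and 0 lower. Over all genes tested these shares were 6.76% and 6.04%. The median log2 fold change of the 22 genes was 0.14, and 0.02 with the length slope as a covariate. SET2 (YJL168C), the only H3K36 methyltransferase of this yeast, had 49.7, 35.9 and 55.9 CPM in K36Q double, against 43.7, 52.8 and 48.6 CPM in K36Q H3X and 37.8, 38.1 and 29.6 CPM in K36Q H3Y. The groups overlapped, and SET2 is on the minus strand of chromosome X, so its level is underestimated in all libraries. GIS1 (YDR096W) was the gene with p under 0.05, at 30.8, 34.1 and 24.6 CPM in K36Q double, against 20.8 to 28.5 CPM in the single-copy libraries. For GIS1 the log2 fold change was 0.33 (SE 0.15, adjusted p = 0.365 by edgeR). The demethylase genes JHD1 and RPH1 had log2 fold changes of 0.17 (SE 0.13) and 0.15 (SE 0.15). The Rpd3S genes RCO1 and EAF3 had 0.24 (SE 0.13) and 0.14 (SE 0.12), and IOC4 had 0.11 (SE 0.18). None of these 5 had an unadjusted p under 0.05.

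Histone and plasmid marker genes gave no difference that passed the test. HHT2, the H3 gene on the plasmids, had 3409, 3609 and 3023 CPM in K36Q double, against 3549, 3515 and 3841 CPM in K36Q H3X and 3232, 3524 and 3871 CPM in K36Q H3Y. HHT2 had a log2 fold change of -0.10 (SE 0.12). HHF2, which encodes H4, had -0.23 (SE 0.14). The H2A and H2B genes HTA1, HTA2, HTB1 and HTB2 had -0.25, -0.12, -0.13 and -0.15, each with an unadjusted p above 0.05. HTZ1, which encodes the H2A variant H2A.Z, had 94.8, 97.9 and 89.2 CPM in K36Q double, against 102 to 109 CPM in the single-copy libraries, with no overlap and a log2 fold change of -0.15 (SE 0.09). The linker histone gene HHO1 and the centromeric H3 gene CSE4 had 0.04 and 0.06. The plasmid markers TRP1 and LEU2 had -0.09 (SE 0.16) and 0.07 (SE 0.19).

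Genes specific to a cells stood lower in double replicates 4 and 5. Of 7 tested, 4 (57.1%) were lower at an unadjusted p under 0.05 and 0 higher, against 6.04% and 6.76% of all genes tested. The median log2 fold change was -0.42. Besides BAR1 these were STE2, MFA2 and AGA2. STE2 (YFL026W) had 152, 124 and 114 CPM in K36Q double, against 149 to 188 CPM in the single-copy libraries. MFA2 (YNL145W) had 181, 103 and 99.1 CPM in K36Q double, against 142 to 204 CPM in the single-copy libraries. AGA2 (YGL032C), the binding subunit of a-agglutinin, had 40.2, 24.1 and 21.6 CPM in K36Q double, against 31.8 to 47.1 CPM in the single-copy libraries. In all 4 genes double replicate 3 overlapped the single-copy libraries, and without it all 4 passed the adjusted threshold. MFA1 and STE6 had log2 fold changes of -0.25 (SE 0.21) and -0.11 (SE 0.17). The 3 tested alpha-cell genes had a median of -0.20 with 0 past p under 0.05, so no alpha-cell gene was higher at that threshold. In bulk RNA, fewer cells of a type and less RNA per cell cannot be told apart.

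Biosynthetic lists stood lower in smaller numbers. Of 28 tested ergosterol genes 7 (25.0%) were lower and 0 higher at an unadjusted p under 0.05. Over all genes tested these shares were 6.04% and 6.76%. The median log2 fold change of the ergosterol genes was -0.13. ERG1 (YGR175C), the squalene epoxidase, had 100.4, 101 and 111 CPM in K36Q double, against 114 to 146 CPM in the single-copy libraries. Of 31 tested translation factors 7 (22.6%) were lower and 0 higher, with a median of -0.13. TIF1 (YKR059W), the RNA helicase eIF4A, had 616, 557 and 510.1 CPM in K36Q double, against 618 to 714 CPM in the single-copy libraries. Neither gene's groups overlapped, and both were chosen after their values were seen. Of 26 tested glycolysis and fermentation genes 3 (11.5%) were lower and 1 (3.85%) higher, with a median of -0.15. Of 45 small-subunit and 54 large-subunit ribosome assembly genes 2 each were lower (4.44% and 3.7%), with medians of -0.02 for both lists. At the 3' end these lists thus did not share the position of the ribosomal protein genes.

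Set against each single-copy strain on its own, K36Q double had more genes at an unadjusted p under 0.05 against K36Q H3Y. The test called 0 of 4984 genes against K36Q H3Y, with 644 (12.9%) at an unadjusted p under 0.05, 308 higher (6.18%) and 336 lower (6.74%). Against K36Q H3X it called 0, with 249 (5%) at that threshold, 168 higher (3.37%) and 81 lower (1.63%). DESeq2 called 5 genes against K36Q H3Y and 0 against K36Q H3X. Both comparisons share the double libraries. With the replicate number as a block, edgeR called 20 genes against K36Q H3Y, although the numbers did not pair those libraries. Without double replicate 3 it called 43 genes against K36Q H3Y and 5 against K36Q H3X. K36Q H3X against K36Q H3Y gave 0 called genes and 78 (1.57%) at an unadjusted p under 0.05, 46 higher (0.923%) and 32 lower (0.642%) in K36Q H3X, and DESeq2 called 0 there too. AIM39, ZIP1 and DDR2 had log2 differences of 0.66, 0.79 and 0.68 between K36Q H3X and K36Q H3Y. Their log2 fold changes in K36Q double were 0.42, 0.60 and 0.56 over K36Q H3X and 1.08, 1.39 and 1.24 over K36Q H3Y. For SSA4, FLO8 and BAR1 both strains gave like values, namely 0.77, 0.69 and -0.51 over K36Q H3X and 0.82, 0.83 and -0.59 over K36Q H3Y.

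Where the pseudo-wild-type libraries lay differed between genes. For ATO2 and BAR1 the log2 fold changes over pseudo-wild-type were 0.83 and -0.50 in K36Q double and 0.05 and 0.05 in the single-copy mean. For SNX41 and BNA1 they were 0.47 and -0.28 in K36Q double and -0.34 and 0.46 in the single-copy mean, so pseudo-wild-type lay between the strains. K36Q double against pseudo-wild-type gave 0 called genes and 446 (8.95%) at an unadjusted p under 0.05, 252 higher (5.06%) and 194 lower (3.89%). The mean of the single-copy strains against the same libraries gave 0 and 97 (1.95%), 41 higher (0.823%) and 56 lower (1.12%). DESeq2 also called 0 in both. Without pseudo-wild-type replicate 8 edgeR called 28 genes higher (0.562%) and 7 lower (0.14%) in K36Q double, and without both that library and double replicate 3 it called 216 higher (4.33%) and 109 lower (2.19%). The single-copy mean stayed at 0 called genes under each of these settings, with 97 to 126 at an unadjusted p under 0.05. The median log2 fold change of the stress-induced list was 0.29 for K36Q double and -0.01 for the single-copy mean, both over pseudo-wild-type. For the ribosomal protein list it was -0.22 for K36Q double and 0.06 for the single-copy mean.

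Pseudo-wild-type replicate 8 resembled double replicates 4 and 5 in most of the genes concerned. Of 332 genes higher in K36Q double at an unadjusted p under 0.05 and of at least 5 CPM, 315 (94.9%) were also higher in replicate 8 than the mean of the other 5 pseudo-wild-type libraries, against 50.6% of all genes. Of 301 lower genes, 284 (94.4%) were also lower there, against 49.4% of all genes. In the other 5 pseudo-wild-type libraries these shares were 8.73% to 56.3% and 3.65% to 63.5%. Each of these was set against a mean that includes replicate 8, so their shares are not independent of it. Replicate 8 has no K36Q by its label, and the 3'-end counts, which do not cover codon 36, cannot show whether it or K36Q double replicate 3 carries the labelled genotype. It also has the slope nearest to 0 on gene length and the lowest share of ribosomal protein counts of its group. Whether what sets it apart also separates double replicates 4 and 5 from replicate 3 was not tested.

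Whether the difference between double and single copies was particular to K36Q was tested against the same difference for R2K and K37Q, the other substitutions in the batch with the same 3 forms. Against R2K edgeR called 0 genes, with 577 (11.6%) at an unadjusted p under 0.05, of which 283 had the higher difference in K36Q (5.68%) and 294 the lower (5.9%). Against K37Q it called 0, with 162 (3.25%), of which 111 were higher (2.23%) and 51 lower (1.02%). DESeq2 called 0 in both. Without double replicate 3 edgeR called 1 gene against K37Q. On the K37Q side, H3X replicate 3 had 1273107 counts, the fewest of the batch. Stretches of 25 neighbouring genes on its chromosomes I, III, IV and XII had a median log2 ratio to the batch above 0.45. Without that library edgeR also called 0 genes against K37Q, with 156 at an unadjusted p under 0.05. The K37Q list medians below include it. Median log2 fold changes of double over single copies are given side by side. For the stress-induced list they were 0.33 in K36Q, 0.30 in R2K and -0.01 in K37Q. For the ribosomal protein list they were -0.28 in K36Q, -0.02 in R2K and -0.24 in K37Q. For the 106 long genes they were 0.20 in K36Q, -0.08 in R2K and 0.24 in K37Q. For the 8 genes reported to start transcription internally they were 0.33 in K36Q, -0.14 in R2K and 0.24 in K37Q. For the a-cell genes they were -0.42 in K36Q, -0.33 in R2K and 0.06 in K37Q. Among the genes named first, ZIP1 and SNX41 had the largest differences from R2K, 1.38 and 0.88 on the log2 scale with unadjusted p of 0.00072 and 0.0017 by edgeR, and neither passed adjustment.

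The same comparison was also made in libraries of another kind. The series holds 6 full-length K36Q libraries, 2 per strain, made with a strand-specific dUTP protocol and sequenced as replicate 1 in batch 3 and replicate 2 in batch 7. They hold 3902082 to 20381371 counts and share no library with the 3'-end data. There, with sequencing batch as a covariate and all 98 full-length libraries in the fit, edgeR called 73 of 6376 genes, 64 higher (1%) and 9 lower (0.141%) in K36Q double. This count leaned on single libraries: it was 1 without K36Q double replicate 1, 20 without double replicate 2, 24 without K36Q H3Y replicate 1 and 41 without K36Q H3X replicate 2.

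Among the genes that rose in K36Q double in the full-length libraries, ATO2 had the largest log2 fold change of those also tested at the 3' end. Its level was 62.3 and 121 CPM in K36Q double, against 17.1 and 24.1 CPM in K36Q H3X and 11.6 and 31.2 CPM in K36Q H3Y (replicates 1 and 2). The log2 fold change was 2.13 (SE 0.33, adjusted p = 0.000266 by edgeR). Both double libraries were above all 4 single-copy libraries. FLO11 (YIR019C), the cell surface flocculin of adhesion and filamentous growth, had 207 and 314 CPM in K36Q double, against 98.3 and 107 CPM in K36Q H3X and 58.0 and 77.0 CPM in K36Q H3Y. FLO11 rose by 1.63 on the log2 scale (SE 0.33, adjusted p = 0.006 by edgeR). At the 3' end FLO11 had 26.6, 64.03 and 59.0 CPM in K36Q double, against 17.9 to 33.8 CPM in the single-copy libraries. AZR1 (YGR224W), a plasma membrane transporter, and SUL1 (YBR294W), a sulfate permease, rose by 1.92 and 1.77 on the log2 scale and were not among the 3'-end genes tested. SUL1 had 29.4 and 35.3 CPM in K36Q double, against 4.495 to 11.9 CPM in the single-copy libraries.

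Of the stress-induced list 6 of 61 genes rose in the full-length libraries and 0 fell, against 64 (1%) and 9 (0.141%) of all 6376 genes, and the median log2 fold change was 0.45, against -0.04 over all genes. HSP26 had 184 and 185 CPM in K36Q double, against 79.4 and 77.1 CPM in K36Q H3X and 52.2 and 95.4 CPM in K36Q H3Y, with a log2 fold change of 1.30 (SE 0.31, adjusted p = 0.0232 by edgeR). SSA3 (YBL075C), an inducible Hsp70, rose by 0.99 on the log2 scale, HSP42, a small heat shock protein, rose by 1.396, and GPX1, a glutathione peroxidase, rose by 1.02. Of 35 glucose-repressed genes 3 rose, namely FOX2 of fatty acid oxidation and PUT1 and PUT2 of proline degradation, with a list median of 0.46. Single members of other lists also rose: the iron genes BIO5, FRE2 and FIT3 by 1.07, 0.87 and 1.24, the allantoin permease gene DAL4 by 1.23, the sulfonate dioxygenase gene JLP1 by 1.11, the thiamine transporter gene THI7 by 0.78, the meiotic gene HOP1 by 0.94, the glucan synthase homolog FKS3 by 0.91 and the TCA cycle gene LSC2 by 0.65. BIO5, which encodes a biotin precursor permease, stands in the iron list and does not act in iron uptake itself.

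Of the 9 genes that fell in the full-length libraries, the largest log2 fold changes were -1.08 for KAR4, -1.05 for AMA1, -0.997 for BNA1 and -0.94 for SMF1. KAR4 (YCL055W), a regulator of karyogamy and meiosis genes, had 25.5 and 19.9 CPM in K36Q double, against 43.2 and 41.6 CPM in K36Q H3X and 46.0 and 61.3 CPM in K36Q H3Y. AMA1 (YGR225W), a meiotic activator of the anaphase-promoting complex, had 7.61 and 5.18 CPM in K36Q double, against 11.4 to 15.4 CPM in the single-copy libraries. BNA1 had 32.6 and 55.2 CPM in K36Q double, against 57.7 and 55.9 CPM in K36Q H3X and 77.1 and 191 CPM in K36Q H3Y, so the double library of replicate 2 was level with K36Q H3X. SMF1 (YOL122C) encodes a manganese transporter. UTR2 (YEL040W), a cell wall transglycosylase, fell by 0.88, RAD27, the flap endonuclease, fell by 0.68, SRY1, a dehydratase, fell by 0.92, SEO1, a putative permease, fell by 0.81 and SER2, of serine synthesis, fell by 0.62, all on the log2 scale. At the 3' end UTR2 had 668, 417 and 439 CPM in K36Q double, against 622 to 756 CPM in the single-copy libraries.

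Most of the called full-length genes had the same sign at the 3' end. Of the 73 genes 49 were tested there, and 47 (95.9%) had a log2 fold change of the same sign, 39 of 40 higher and 8 of 9 lower, against 51.8% of all 4978 genes tested in both. The exceptions were AMA1, with 0.50 at the 3' end, and PAD1, with -0.01. Of 636 genes with an unadjusted p under 0.05 at the 3' end, 417 (65.6%) had the same sign in the full-length libraries. Across the 4978 genes the log2 fold changes of the assays had a Pearson correlation of 0.179 and a Spearman correlation of 0.110, given as a description, since the points share the libraries. Lists differed in this. Ribosomal protein genes had a median of -0.06 in the full-length libraries, with -0.28 in replicate 1 and 0.16 in replicate 2, and 0 of 137 were called. The small-subunit and large-subunit ribosome assembly lists had -0.51 and -0.71 there, negative in both replicates, with 0 called. At an unadjusted p under 0.05 by edgeR, 12 of 46 and 29 of 56 of them were lower and 0 higher. Over all 6376 genes 10.6% were lower and 8.94% higher. With the opposite sign to the 3' end, long genes had a median of -0.21 and the internally starting genes -0.19, against 0.20 and 0.33 at the 3' end. The glycolysis, DNA damage response, meiosis and H3K36 lists also had the opposite sign, with 0.37, -0.21, -0.21 and -0.20. At the 3' end these lists had -0.15, 0.14, 0.17 and 0.14. The chaperone, trehalose, a-cell, ergosterol and translation factor lists kept their sign, with 0.36, 0.53, -0.27, -0.01 and -0.08. SNX41 had a full-length log2 fold change of -0.36 (SE 0.19) and HXK2 of 0.31 (SE 0.24), both opposite to the 3' end and neither past the threshold.

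**Figure D4:**
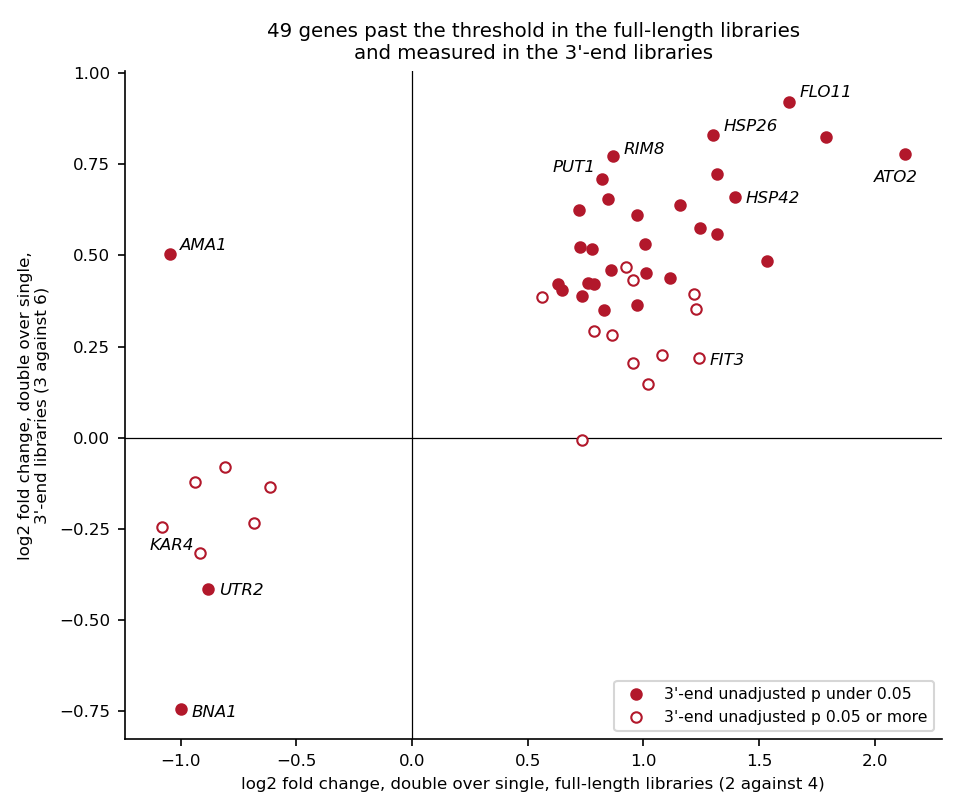
Log2 fold change of K36Q double over the single-copy mean in the full-length libraries (x axis, 2 against 4) and in the 3'-end libraries (y axis, 3 against 6) for the 49 genes called in the full-length libraries and tested in both. Filled points have an unadjusted p under 0.05 at the 3' end; 47 of the 49 lie in the quadrants of equal sign, ATO2 lies farthest right at 2.13, and AMA1 lies in the quadrant of opposite sign.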

How the data were processed

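The authors deposited whole-number counts per feature for each library, made with featureCounts 1.4.6-p2, per the file headers. The 3'-end libraries, primed with oligo-dT, pooled and tagmented with 12 PCR cycles per the labels' protocols, were counted on 1 strand over 5013 transcript features at mapping quality 30 or more. The full-length libraries were counted as pairs over 6692 gene features with duplicates ignored. TopHat2 2.0.12, Bowtie2 and sacCer3 are named in the submitters' processing notes. No molecular identifiers are named, so counts are reads and not molecules.

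Counts were fitted with edgeR 4.0.16 in R 4.3.3 (TMM scaling, filterByExpr, quasi-likelihood test, Benjamini-Hochberg over all genes tested, threshold 0.05). All 33 libraries of batch 10 shared 1 fit, and all 98 full-length libraries another with sequencing batch as a covariate. CPM are TMM-scaled except for the genotype markers. The procedure was tested on simulated data. Alternatives were DESeq2 1.42.0, RLE size factors, no filter, the compared libraries alone, a replicate block, a length-slope covariate, another pseudocount (0.25 in place of 1) or level minimum for the slope, and leaving out each library. Figures and lists used Python 3.11.15, pandas 2.3.3, scipy 1.17.1 and matplotlib 3.10.9.

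The members and the 41 gene lists were chosen with earlier results of these data known. Genes were named where they had a symbol, a mean of at least 5 CPM over the 9 libraries, passed the threshold and did not overlap. Where fewer than 5 passed in a direction, the 6 with the smallest p were named. Up to 4 called members of each list, the 4 largest full-length changes each way, and histone, plasmid marker and H3K36 genes were also named. Replicate numbers did not pair the libraries: over 4886 genes the same-numbered deviations correlated at 0.120 to 0.339 between double and H3X, but at -0.238 to -0.200 between double and H3Y. No chromosome segment of a K36Q library stood apart.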

Additional observations from a re-analysis of the deposited data

Results flagged for a closer look

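Across 93 groups of 6 pseudo-wild-type values, 11 had 1 library whose gap to the nearest other exceeded 0.625 of the group's range (Dixon's criterion), and chance gives about 1 in 20. Replicate 8 was that library in 8 of the 11. It was high for ATO2 at 45.21 CPM, AIM39 at 126.3 CPM, DDR2 at 254.0 CPM and FLO11 at 54.52 CPM. It was low for HXK2 at 490.2 CPM, AIF1 at 92.02 CPM, SMF1 at 57.71 CPM and UTR2 at 389.6 CPM. For HHT2 replicate 10 stood apart at 4862 CPM, and for FIT3 replicate 12 at 883 CPM. The sulfur assimilation and methionine list stood apart in replicate 10, with a median log2 difference of 0.1096 from the single-copy mean.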

How the results depend on the processing

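For K36Q double against the single-copy mean at the 3' end, DESeq2 called 2 genes, the replicate block 2, and DESeq2 on the 9 libraries alone 181, of which 152 were lower, against 0 by edgeR on all libraries. Leaving out 1 library gave 0 to 81 genes with all libraries of the batch in the fit, and 0 to 639 with the 9 libraries alone, where 10 were called without K36Q H3X replicate 4. Against K36Q H3Y, DESeq2 called 5, the replicate block 20, DESeq2 on the 9 libraries 238, and leaving out 1 library gave 0 to 43 (0 to 634 with the 9 alone). Against K36Q H3X, leaving out 1 library gave 0 to 5 (0 to 196 with the 9 alone). Against the K37Q difference it gave 0 to 1. The replicate block changed no other 3'-end call count. For the full-length comparison DESeq2 called 197 genes, the 6 K36Q libraries alone with the replicate block 1, and leaving out 1 library gave 1 to 68, against 73. The difference in length slope was 0.0574 to 0.102 with 1 library left out, and p by the exact permutation test was 0.0357 to 0.143. The smallest p this test allows rises when a library is left out. The cause of these changes was not tested. The difference in length slope kept its direction. So did each log2 fold change checked, for the 3'-end genes with the smallest p and for called full-length genes. Other named genes were not checked. The balance of calls did turn in the main comparison. Without K36Q double replicate 3 edgeR called 60 genes higher and 21 lower, but DESeq2 on the 9 libraries alone called 29 higher and 152 lower. Against K36Q H3Y these counts were 26 and 17 by edgeR, and 69 and 169 by DESeq2. Of 41 list medians 19 changed sign under at least 1 of 27 alternatives. For 17 of them the median was at most 0.0851 in size, and the other 2 were the long genes, at 0.20 and -0.04 with the length slope as a covariate, and the DNA damage response genes, at 0.14 and -0.01. Without K36Q double replicate 3 the glucose-repressed median was 0.40 in place of 0.25 and the ergosterol median -0.22 in place of -0.13. The alternatives that use only the 9 libraries with DESeq2 or with 1 library left out, and those without pseudo-wild-type libraries, were chosen after seeing the data. Leaving out each library in turn was planned. Giving values of genes and lists without K36Q double replicate 3 was chosen after that library was seen to stand apart. Leaving out raised chromosome segments applied only to the K37Q difference, where 0 genes were called. With 1 double library left out, 2 remain, and single-library leave-outs of the full-length strains leave 1, which is assumed to vary like the other groups.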
